A study of Mus musculus with 8 samples.

Results

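The BCL2 family decides whether a cell permeabilises the outer membrane of its mitochondria and dies by apoptosis. The set described here holds 10 of its genes, chosen by gene symbol, out of 25006 genes in each deposited table. They are the pro-survival genes Bcl2, Bcl2l1 (which encodes BCL-XL) and Mcl1, the effectors Bax and Bak1, and the BH3-only genes Bid, Bad, Bbc3 (PUMA), Pmaip1 (NOXA) and Bcl2l11 (BIM). All 10 were found and all 10 passed the filter on low counts, which left 15310 genes for testing.

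Pro-survival proteins hold the effectors in check, effectors form the pores that release cytochrome c, and BH3-only proteins set off the effectors or occupy the pro-survival proteins. BID links the death receptor CD95, the product of Fas, to the mitochondria, because caspase-8 cleaves it. Each protein is also regulated after its mRNA is made, and lymphocytes and myeloid cells use the same family to set their lifespan.

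RNA was sequenced from tumors of 4T1, a mouse mammary carcinoma line labelled as triple-negative breast cancer, after injection into the fat pad and growth for at most 20 days. NSG hosts are immunodeficient and without mature T, B or NK cells, whereas Balb/c hosts, the strain in which 4T1 arose, are immunocompetent. In each host the wild-type group held 1 library of the parental line (replicate 1) and 1 of a line labelled vCas9 (replicate 2), and the CD95 knockout group held 1 library each of CRISPR/Cas9 clone 54 (replicate 1) and clone 69 (replicate 2). This gave 4 groups of 2 libraries, all with tumor cells of 4T1 origin. Replicates are therefore different lines, each knockout line is by its label 1 clone, and whether a library held 1 tumor or several is not stated, so p-values measure the spread between these lines and tumors. No line has both genotypes. An effect of CD95 loss therefore cannot be told apart from other differences between the knockout clones and the wild-type lines.

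Library totals ran from 8680070 to 19655945 counts, and 3 counts, taken as the limit of detection, corresponded to 0.159 to 0.321 CPM (counts relative to the library total, here scaled by TMM factors). Fas mRNA was at 33.9 and 22.6 CPM in NSG wild-type, 29.5 and 12.9 in NSG knockout, 51.6 and 46.9 in Balb/c wild-type and 27.1 and 33.7 in Balb/c knockout tumors. A small CRISPR change need not lower a whole-gene count, so these values do not check the knockout, which rests on the labels. All 7 epithelial tumor markers were above 0 in every library. Ncr1, an NK cell marker, had no counts in any NSG library, and the 9 T cell markers summed to 5.14 to 11.8 CPM in NSG and 383 to 507 CPM in Balb/c tumors. The Balb/c clone 54 library had the highest macrophage sum of all libraries (10861 CPM, the others 1774 to 4431) and the lowest neutrophil sum (891 CPM, the others 1585 to 7816). In these bulk tumors, fewer cells of a type and less RNA per cell cannot be told apart.

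The sequences just upstream of 4 members are shown because their mRNAs gave 3 patterns over the groups below: Mcl1 followed the host in both genotypes, Bcl2l1 and Bcl2l11 were at their highest in Balb/c wild-type tumors, and Bax rose in Balb/c hosts in the knockout tumors and was not called in the wild-type tumors (its interaction is given below). Each is the 250 bases before the RefSeq start in GRCm38.p6, written 5′ to 3′ on the gene's strand, and 9 of the 10 members had an entry in that table. Capitals mark the letters of 6 motifs searched on both strands: the STAT-type TTCNNNGAA, the AP-1 type TGANTCA, the cAMP-response type TGACGTCA, the E-box CACGTG, the GC-box GGGCGG and the FOXO-type GTAAACA. The windows are chr3:95658471-95658720 on the plus strand for Mcl1, chr2:152831729-152831978 on the minus strand for Bcl2l1, chr2:128125788-128126037 on the plus strand for Bcl2l11 and chr7:45466899-45467148 on the minus strand for Bax.
Mcl1: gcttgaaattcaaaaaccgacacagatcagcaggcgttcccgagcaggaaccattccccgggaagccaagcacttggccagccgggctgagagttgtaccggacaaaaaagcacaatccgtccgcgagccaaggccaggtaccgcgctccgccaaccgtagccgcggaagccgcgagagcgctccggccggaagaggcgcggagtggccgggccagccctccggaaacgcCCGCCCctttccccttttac
Bcl2l1: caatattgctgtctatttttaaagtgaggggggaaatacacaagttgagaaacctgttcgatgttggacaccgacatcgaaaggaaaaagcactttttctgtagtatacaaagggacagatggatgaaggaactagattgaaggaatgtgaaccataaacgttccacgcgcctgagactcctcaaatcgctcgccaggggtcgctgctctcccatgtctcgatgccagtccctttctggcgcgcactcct
Bcl2l11: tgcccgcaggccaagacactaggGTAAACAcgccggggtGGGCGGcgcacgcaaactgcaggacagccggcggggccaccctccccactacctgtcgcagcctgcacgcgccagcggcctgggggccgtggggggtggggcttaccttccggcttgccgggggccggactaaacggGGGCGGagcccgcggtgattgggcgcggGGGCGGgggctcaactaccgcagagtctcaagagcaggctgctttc
Bax: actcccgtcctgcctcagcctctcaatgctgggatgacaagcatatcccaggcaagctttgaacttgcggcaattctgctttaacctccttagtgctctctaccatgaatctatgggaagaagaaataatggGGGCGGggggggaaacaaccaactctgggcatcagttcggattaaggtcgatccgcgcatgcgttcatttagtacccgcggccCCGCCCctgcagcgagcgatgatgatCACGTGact
The Mcl1 window held 1 GC-box and had 64.4% G or C. The Bcl2l11 window held 3 GC-boxes and 1 FOXO-type match at 72% G or C, and the Bax window 2 GC-boxes and 1 E-box at 54%. The Bcl2l1 window, at 47.6% G or C, had no match to any of the 6 motifs. Over 32851 RefSeq windows of the same length, 32.7% held a GC-box, 6.02% an E-box and 3.17% a FOXO-type match. The STAT-type, AP-1 type and cAMP-response type letters were in 7.02%, 6.75% and 1.55% of windows and in none of the 4 shown. A match describes letters only, and a window without one says nothing of a factor.

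Mcl1, which encodes a short-lived pro-survival protein on which neutrophils, lymphocytes and many tumor cells depend, was the most abundant member in every library. It lies at chr3:95658788-95663176 in GRCm38, and its level per length, in CPM per kb of annotated exon, ranged from 206 to 502 over the 8 libraries, with a mean of 367 at the 99.5th percentile of tested genes. Pmaip1, Bcl2l11, Bcl2l1 and Bax followed at means of 33.8, 32.4, 29.1 and 25 CPM per kb, and their ranges over the libraries overlapped. Bak1 was lower, at 14.4 CPM per kb (11.4 to 20.5), and Bad, Bcl2, Bbc3 and Bid lay lowest, at 5.71, 5.2, 4.41 and 3.71 CPM per kb. Between neighbours in that order, only Mcl1 and Pmaip1, and Bak1 and Bad, had ranges that did not overlap over the 8 libraries. Exons of Bad, Bak1, Bid, Bax and Bcl2 overlap those of another gene, so the levels of these 5 are uncertain where reads were shared.

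The order below Mcl1 changed with the group. In NSG wild-type tumors Bax came second, at 28.2 CPM per kb, ahead of Bcl2l11 at 24.4, Bcl2l1 at 22.7 and Bak1 at 14.5, with Pmaip1 sixth at 10.1. In Balb/c wild-type tumors Bcl2l11 was second at 61.4 CPM per kb, and Pmaip1 at 55.8 and Bcl2l1 at 52.4 also lay above Bax at 20. In Balb/c knockout tumors Pmaip1 was second at 61.6 CPM per kb and Bax next at 33.2, while Bcl2l11 at 29.3 and Bcl2l1 at 21 overlapped their neighbours. NSG knockout tumors had Bcl2l1 at 20.2 and Bax at 18.6 CPM per kb in overlapping ranges, and Pmaip1 sixth at 7.55.

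**Figure D1:**
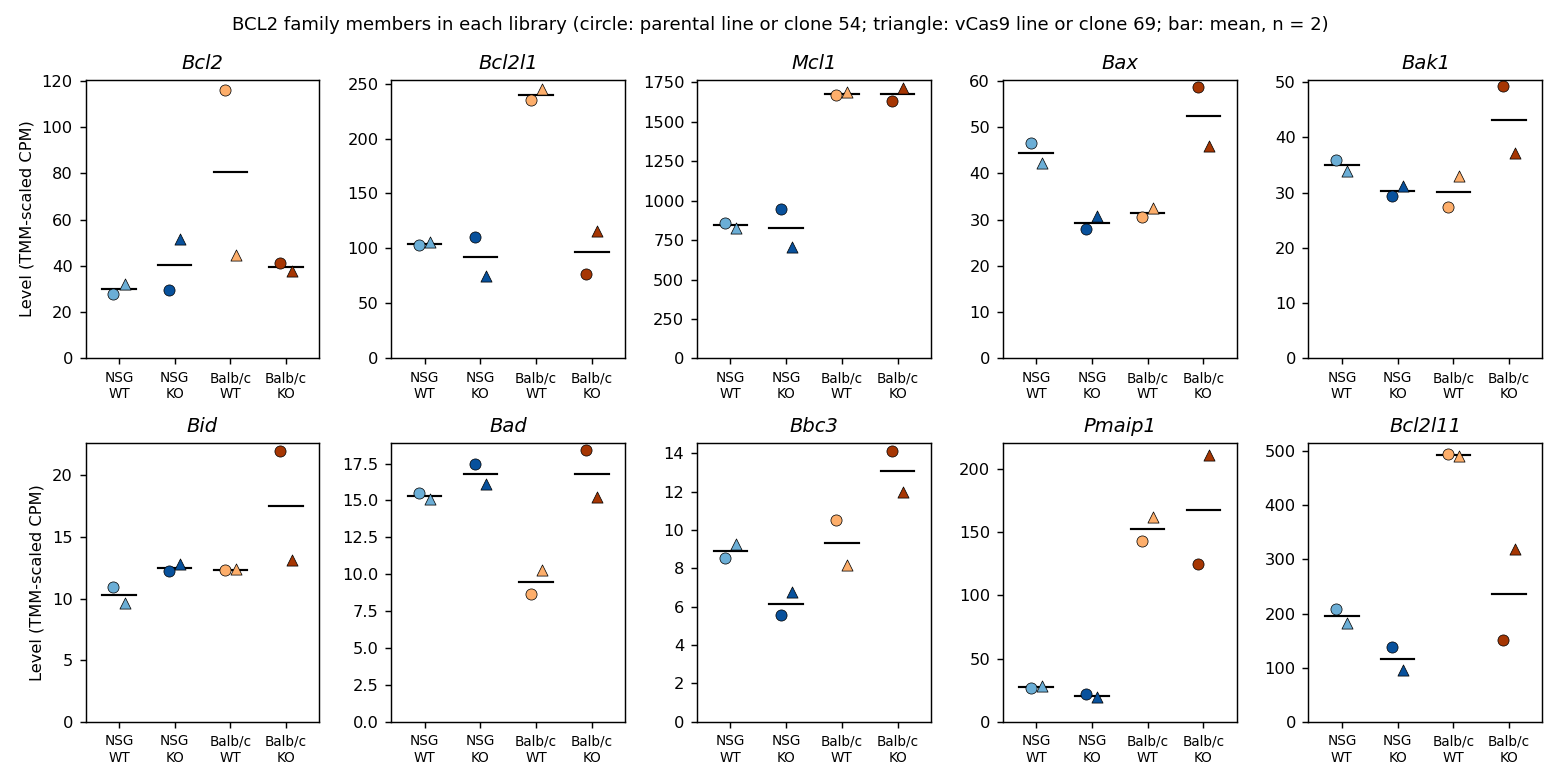
Level of each of the 10 members in each of the 8 libraries, in CPM on linear axes that start at 0, by host and CD95 genotype (WT, wild-type; KO, knockout). Circles are the parental line or clone 54, triangles the vCas9 line or clone 69, and bars the mean of 2 libraries. Pmaip1 and Mcl1 lie higher in all 4 Balb/c libraries than in all 4 NSG libraries, and Bcl2l1 is at 235 and 245 CPM in wild-type Balb/c libraries against at most 116 CPM elsewhere.

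The first comparison asked how tumors in Balb/c hosts differed from those in NSG hosts when the tumor cells were wild-type for CD95. Of the pro-survival genes all 3 rose in the Balb/c tumors, and of the BH3-only genes Pmaip1 and Bcl2l11 rose while Bad fell. No effector passed the test. In all, 6 of 10 members passed edgeR's quasi-likelihood test at an adjusted p under 0.05, 5 higher and 1 lower, against 31.5% of all genes tested (15.3% higher and 16.2% lower). At an unadjusted p under 0.05 there were 7, against 45.8%, and the libraries of the hosts did not overlap for 9 members, against 76.4% of all genes. The median log2 fold change of the members was 0.63, and that of all tested genes was -0.08. Of all genes called, 48.6% were higher in Balb/c hosts, and 36.5% were under total-count scaling.

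Mcl1 was at 858 and 827 CPM in NSG wild-type and at 1670 and 1686 CPM in wild-type Balb/c libraries. The groups did not overlap, and the difference was 1.99-fold (log2 fold change 0.99, SE 0.23, adjusted p = 0.0169 by edgeR). Bcl2l1, whose product BCL-XL protects epithelial cells and activated lymphocytes, was at 103 and 106 CPM in NSG and 235 and 245 CPM in Balb/c. Each pair of libraries lay close together, and the difference was 2.3-fold (log2 1.2, SE 0.25, adjusted p = 0.012 by edgeR).

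Bcl2, the founding pro-survival gene and one that mature lymphocytes express, was at 27.8 and 32.1 CPM in NSG and at 116 and 44.8 CPM in wild-type Balb/c libraries. The groups did not overlap, but the parental library stood well above the vCas9 library, a gap of 1.37 on the log2 scale that was the largest between replicates of any member. The difference between hosts was 2.68-fold (log2 1.42, SE 0.43, adjusted p = 0.0395 by edgeR), and without the Balb/c parental library it was 0.58 on the log2 scale with an adjusted p of 0.263. In that parental library the 7 B cell markers summed to 208 CPM, against 32 to 53.3 CPM in the other Balb/c libraries and at most 6.21 CPM in NSG libraries. The part of B cell RNA in the Bcl2 value was not tested.

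Pmaip1, whose product NOXA binds mainly MCL1, gave the largest change of any member. Its level was 26.7 and 28.4 CPM in NSG and 143 and 162 CPM in wild-type Balb/c libraries, a 5.54-fold difference (log2 2.47, SE 0.26, adjusted p = 0.00134 by edgeR). Bcl2l11, whose product BIM binds all pro-survival members and is needed to remove lymphocytes and myeloid cells, was at 209 and 182 CPM in NSG and 495 and 491 CPM in Balb/c. Its rise was 2.52-fold (log2 1.33, SE 0.35, adjusted p = 0.0252 by edgeR). Both groups of both genes were apart by much more than their own spread.

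Bad, which encodes a BH3-only protein held inactive by growth factor signalling, was at 15.5 and 15.1 CPM in NSG and 8.66 and 10.3 CPM in Balb/c. It was the member that fell, by 0.69 on the log2 scale or 1.61-fold (SE 0.21, adjusted p = 0.0384 by edgeR). The Bad call was lost under the size factors of DESeq2, with an adjusted p of 0.0632 in edgeR and 0.0876 in DESeq2 itself, and without a filter (0.0985). It was also lost when either NSG knockout library was left out, with a log2 fold change of -0.7. Bax read 46.5 and 42.3 CPM in NSG against 30.5 and 32.5 CPM in Balb/c, and its log2 fold change of -0.5 (SE 0.17) missed the threshold with an adjusted p of 0.0626. It passed as lower under total-count scaling (-0.65, 0.0361), in a fit of only the 4 libraries (-0.43, 0.0367) and without Balb/c clone 69 (-0.5, 0.0269). Bak1, Bid and Bbc3 had log2 fold changes of -0.21, 0.27 and 0.07, with adjusted p of 0.42 to 0.843 in edgeR.

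Only Pmaip1 stayed past the threshold in every alternative run on this comparison. With line as a replicate block, which pairs each line over the hosts, its adjusted p was 0.015, while those of Bcl2l1 (0.0559), Mcl1 (0.072), Bcl2l11 (0.0794), Bad (0.0953) and Bcl2 (0.103) missed it with log2 fold changes between -0.7 and 1.34. Leaving out any 1 of the 4 libraries compared ended the calls of Bcl2l1, Mcl1, Bcl2l11 and Bad with adjusted p of 0.0538 to 0.196, and Bcl2 lost its call without either NSG wild-type library (0.183 and 0.14) and under total-count scaling (0.0577).

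**Figure D2:**
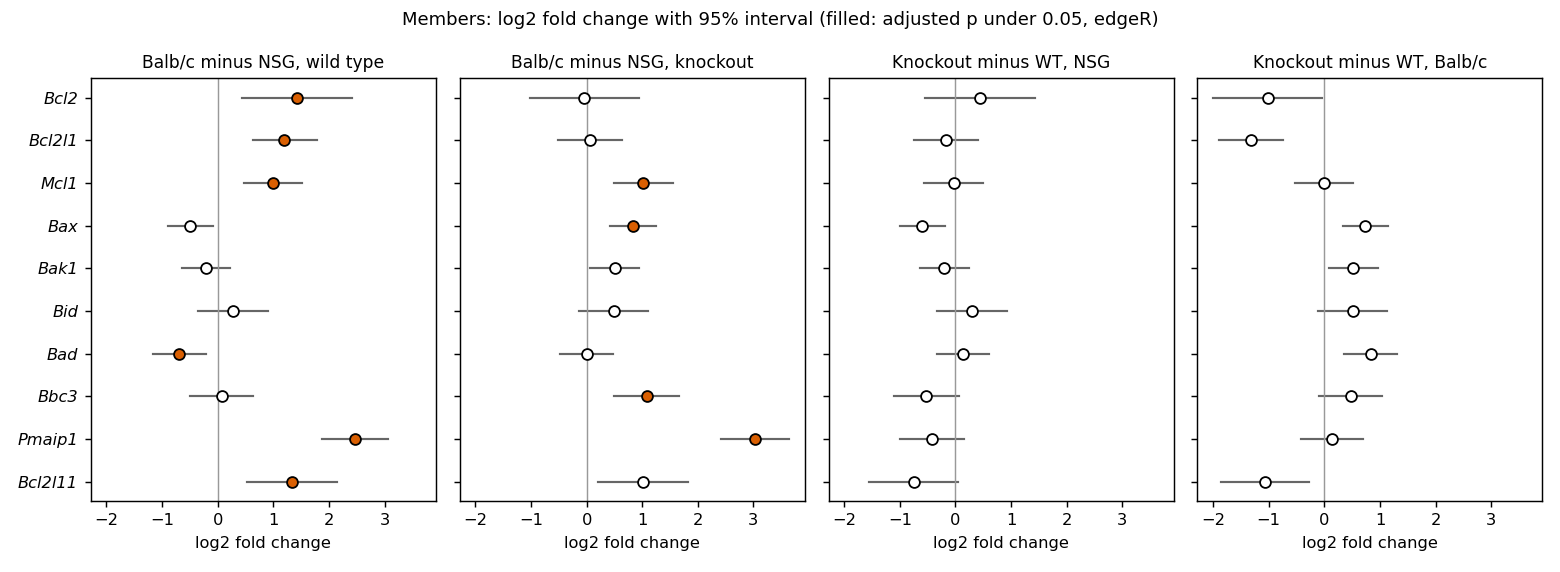
Log2 fold change of each member in the host comparisons and the CD95 knockout comparisons, each with its 95% confidence interval, from edgeR. Filled points passed an adjusted p of 0.05, and Pmaip1 has the largest host difference in both genotypes, at 2.47 and 3.03.

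The same host comparison was made for tumors of the CD95 knockout clones. Here Pmaip1, Mcl1, Bbc3 and Bax rose in Balb/c hosts and no member fell, while Bcl2 and Bcl2l1, which had risen in the wild-type tumors, had differences near 0. Of 10 members, 4 passed the edgeR test, all higher, against 31.1% of all genes (15.7% higher and 15.4% lower). At an unadjusted p under 0.05 there were 6, against 43.4%, and the libraries did not overlap for 7 members, against 64.2% of all genes. The member median was 0.67 on the log2 scale and the median of all genes 0.02.

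Mcl1 was at 944 and 704 CPM in NSG and 1630 and 1716 CPM in Balb/c knockout tumors. The groups were again apart, with a 2.03-fold difference (log2 1.02, SE 0.23, adjusted p = 0.013 by edgeR), a size like that in wild-type tumors. Bcl2l1, in contrast, was at 110 and 75.1 CPM in NSG and 76.7 and 116 CPM in Balb/c. Those groups overlapped, and the log2 fold change was 0.06 with a 95% interval of -0.51 to 0.63 (adjusted p = 0.878 by edgeR). Bcl2 also overlapped between the hosts, at 29.5 and 51.5 CPM in NSG and 41.3 and 37.7 CPM in Balb/c (log2 -0.04, interval -1.02 to 0.94).

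Bax, the cytosolic effector that moves to mitochondria when activated, was at 27.9 and 30.7 CPM in NSG and at 58.7 and 45.9 CPM in Balb/c knockout tumors. Its rise was 1.78-fold (log2 0.83, SE 0.18, adjusted p = 0.0102 by edgeR). Bak1, the effector that resides on mitochondria, read 29.4 and 31.2 against 49.3 and 37.1 CPM without overlap, but its log2 fold change of 0.51 (SE 0.19) had an adjusted p of 0.0765.

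Among the BH3-only genes Pmaip1 was at 21.9 and 19.3 CPM in NSG and 125 and 211 CPM in Balb/c knockout tumors. The rise was 8.16-fold (log2 3.03, SE 0.26, adjusted p = 0.000395 by edgeR), although the Balb/c clones differed from each other by 0.75 on the log2 scale. Bbc3, whose product PUMA acts downstream of p53 and binds all pro-survival members, was at 5.56 and 6.76 against 14.1 and 12 CPM. It rose 2.11-fold (log2 1.08, SE 0.25, adjusted p = 0.0153 by edgeR), and its lowest count in any library was 52.

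Bcl2l11 spread more widely, at 138 and 94.7 CPM in NSG and 151 CPM for clone 54 and 320 CPM for clone 69 in Balb/c. The groups did not overlap, yet the log2 fold change of 1.01 (SE 0.35) had an adjusted p of 0.0585 in edgeR. It rested on which Balb/c clone was kept: without clone 54 it was 1.43 with an adjusted p of 0.00576, and without clone 69 it was 0.38 with an adjusted p of 0.272. DESeq2 called it at 0.0161. Bid read 12.2 and 12.8 against 22 and 13.1 CPM (log2 0.49, adjusted p = 0.202), and Bad 17.5 and 16.1 against 18.4 and 15.2 CPM (log2 0, interval -0.47 to 0.47).

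Pmaip1 was again past the threshold in every alternative run. With line as a replicate block Bax (adjusted p = 0.0491 by edgeR) and Pmaip1 (0.00657) passed and Mcl1 (0.0616) and Bbc3 (0.0628) did not, and a fit of only the 4 libraries compared left Pmaip1 alone. Without NSG clone 54, Bax (0.0603) and Bbc3 (0.0821) missed the threshold, and without NSG clone 69, Mcl1 (0.0767) and Bbc3 (0.0512) did.

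Averaged over both genotypes, 5 of 10 members were higher in Balb/c hosts by edgeR, against 22.0% of all genes called higher, 23.0% lower and 45.0% in either direction, and 6 were at an unadjusted p under 0.05, against 53.1%. Pmaip1 was 6.72-fold higher (log2 2.75, SE 0.18, adjusted p = 6.43e-05) and Mcl1 2.01-fold higher (log2 1.01, SE 0.16, adjusted p = 0.00205), and for both genes all 4 Balb/c libraries lay above all 4 NSG libraries, as was so for 33.6% of all genes in one direction or the other. Bcl2l11 (log2 1.17, adjusted p = 0.00644), Bcl2l1 (log2 0.63, adjusted p = 0.0204) and Bbc3 (log2 0.57, adjusted p = 0.03) passed with overlapping libraries. DESeq2 and the fit without a filter also called Bcl2, and total-count scaling called Bad lower (log2 -0.52, adjusted p = 0.0241 by edgeR). With line as a replicate block the calls of Bcl2l1 (adjusted p = 0.074) and Bbc3 (0.0906) were lost, and total-count scaling also ended that of Bbc3 (0.129). Both were lost without either NSG wild-type, the NSG clone 69 or the Balb/c parental library (adjusted p of 0.052 to 0.112), Bcl2l1 also without Balb/c vCas9 (0.0532) and Bbc3 also without NSG clone 54 (0.0921).

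Leukocyte markers moved with these host differences. The 5 pan-leukocyte markers summed to 1645 to 2484 CPM in NSG and 4920 to 6045 CPM in Balb/c tumors, and 4 of 5 rose in the wild-type and 5 of 5 in the knockout comparison. All 9 T cell markers tested rose in both, as did 7 of 7 and 6 of 7 NK cell markers, whose sum went from 1.79 to 9.2 CPM in NSG to 161 to 341 CPM in Balb/c. B cell markers rose for 7 of 7 in the wild-type and 3 of 7 in the knockout comparison. Their part in the changes of Mcl1, Bcl2l11, Bcl2l1, Pmaip1 and Bcl2 was not tested. Proliferation markers ran the other way, with 6 of 7 lower in Balb/c hosts in each genotype and sums of 566 to 971 CPM in NSG against 242 to 389 CPM in Balb/c. Fibroblast markers were lower for 1 of 7 in the wild-type and 6 of 7 in the knockout comparison, and adipocyte markers for 2 of 5 and 4 of 5. Of 9 macrophage markers 1 rose and 2 fell in wild-type tumors (median -0.99) and 7 rose in knockout tumors (median 1.69). Of 8 neutrophil markers 3 rose in wild-type tumors (median 2.03), and 1 rose and 1 fell in knockout tumors (median -0.83). For the interaction of host and genotype 0 markers of either list passed by edgeR. Dendritic cell markers rose for 4 of 6 and 5 of 6.

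The next comparison asked how tumors of the CD95 knockout lines differed from those of the wild-type lines within NSG hosts. By edgeR 0 of 10 members passed at an adjusted p under 0.05, against 0.0131% of all genes, and 0 passed by DESeq2, which called 339 genes in all. At an unadjusted p under 0.05 there was 1, against 14.0% of all genes. This was Bax, at 46.5 and 42.3 CPM in wild-type and 27.9 and 30.7 CPM in knockout tumors, without overlap. Its log2 fold change was -0.6 (SE 0.18, interval -1 to -0.19, adjusted p = 0.25).

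The remaining members in NSG hosts had log2 fold changes between -0.75 and 0.44. Bcl2l11 had the lowest, with 209 and 182 CPM in wild-type and 138 and 94.7 CPM in knockout tumors (-0.75, SE 0.35, adjusted p = 0.375), followed by Bbc3 at -0.53 (adjusted p = 0.391) and Pmaip1 at -0.42 (adjusted p = 0.481). These 3 genes, Bax, Bak1, Bid and Bad had groups that did not overlap, as did 52.6% of all genes with 2 libraries a group. Mcl1 was at 858 and 827 against 944 and 704 CPM, a log2 difference of -0.03 with an interval of -0.56 to 0.49. In the NSG knockout tumors all 9 macrophage markers had negative log2 fold changes, with a median of -0.89, and 0 of 9 passed by edgeR (4 at an unadjusted p under 0.05). Dendritic cell markers were negative for 5 of 6 (median -0.73, 5 at an unadjusted p under 0.05) and epithelial tumor markers positive for 7 of 7 (median 1.43, 3 at an unadjusted p under 0.05), again with 0 past the adjusted threshold. Their part in the member values was not tested.

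The same comparison of knockout with wild-type tumors was made within Balb/c hosts. By edgeR again 0 of 10 members passed, against 0.176% of all genes (0.0457% higher and 0.131% lower). At an unadjusted p under 0.05 there were 6, against 30.9% of all genes: Bcl2l1, Bcl2l11 and Bcl2 with lower values in the knockout tumors, and Bax, Bad and Bak1 with higher values. The genotypes did not overlap for 8 members, against 62.2% of all genes. DESeq2 called 3 members, Bcl2l1, Bcl2l11 and Bax, and 2161 of the 25006 genes it was given.

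Bcl2l1 was at 235 and 245 CPM in wild-type and 76.7 and 116 CPM in knockout tumors. The groups were far apart, the lowest wild-type value lying above the highest knockout value by more than the spread within either group, and the log2 fold change was -1.32 (SE 0.25, interval -1.9 to -0.74, adjusted p = 0.0564 by edgeR and 6.71e-05 by DESeq2). Bcl2l11 was at 495 and 491 CPM in wild-type, 151 CPM in clone 54 and 320 CPM in clone 69 tumors (log2 -1.07, SE 0.35, adjusted p = 0.0929 by edgeR and 0.0135 by DESeq2). Bcl2 was at 116 and 44.8 against 41.3 and 37.7 CPM (log2 -1.02, SE 0.42, adjusted p = 0.149 by edgeR), and here the parental library again stood alone: without it the value was -0.18 with an adjusted p of 0.798, and without the vCas9 library it was -1.63.

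Of the effectors, Bax was at 30.5 and 32.5 CPM in wild-type and 58.7 and 45.9 CPM in knockout tumors (log2 0.73, SE 0.17, adjusted p = 0.0597 by edgeR and 0.0489 by DESeq2). Bak1 was at 27.3 and 33 against 49.3 and 37.1 CPM (log2 0.52, SE 0.19, adjusted p = 0.117 by edgeR). In both genes clone 54 was the higher of the clones, and neither gene's groups overlapped.

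Bad was at 8.66 and 10.3 CPM in wild-type and 18.4 and 15.2 CPM in knockout tumors (log2 0.83, SE 0.21, adjusted p = 0.062 by edgeR). Mcl1 and Pmaip1, the members with the most regular host difference, overlapped between the genotypes here: Mcl1 read 1670 and 1686 against 1630 and 1716 CPM (log2 0, interval -0.53 to 0.52), and Pmaip1 143 and 162 against 125 and 211 CPM (log2 0.14, interval -0.42 to 0.7). Bid and Bbc3 had log2 fold changes of 0.51 and 0.48 with adjusted p of 0.231 and 0.219.

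The knockout clones differed from each other in Balb/c hosts, where the median gap between replicates was 0.39 on the log2 scale over all genes, against 0.21 for wild-type tumors in the same host. Clone 54 and clone 69 differed by 1.08 for Bcl2l11, 0.75 for Pmaip1, 0.73 for Bid and 0.6 for Bcl2l1, and by 0.07 for Mcl1. Without the clone 69 library, so that clone 54 stood alone, edgeR called 6 members: Bcl2l1 (log2 -1.64, adjusted p = 0.00734), Bcl2l11 (-1.7, 0.00799), Bax (0.91, 0.0121), Bad (0.96, 0.0218), Bak1 (0.71, 0.029) and Bid (0.84, 0.0305). That fit called 3886 genes in all. Without the clone 54 library instead, it called 0 members and 1 gene in all, with Bcl2l11 at -0.73 and Bid at -0.02. Both fits take the lone sample to vary like the other groups.

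Cell type markers differed between these libraries too. Summed macrophage markers were 2183 and 2528 CPM in Balb/c wild-type, 10861 CPM in clone 54 and 4431 CPM in clone 69 tumors, and all 9 had positive log2 fold changes (median 1.36, 9 of 9 at an unadjusted p under 0.05, 0 past the adjusted threshold by edgeR). Summed neutrophil markers were 7816 and 6203 CPM in wild-type, 891 CPM in clone 54 and 2910 CPM in clone 69 tumors. Clone 54 was the lower of the clones for Bcl2l1, Bcl2l11, Mcl1, Pmaip1 and the neutrophil sum. It was the higher for Bax, Bak1, Bcl2, Bid, Bad, Bbc3 and the macrophage sum. Such directions alone link no member to a cell type. Summed epithelial markers, at 718 CPM in clone 54 and 3889 CPM in clone 69, also set the clones apart. Endothelial markers had 6 of 6 positive log2 fold changes (median 1.28, 6 at an unadjusted p under 0.05), and B cell markers 6 of 7 negative ones (median -3.18, 5 at an unadjusted p under 0.05), with 0 past the adjusted threshold by edgeR. The part of these cell types in the member values was not tested.

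Averaged over both hosts, 0 of 10 members passed by edgeR for the knockout, against 0% of all genes, where the smallest adjusted p was 0.052. At an unadjusted p under 0.05 there were 3, against 23.9% of all genes: Bcl2l1 (log2 -0.75, adjusted p = 0.104), Bcl2l11 (-0.91, 0.116) and Bad (0.48, 0.129). DESeq2 called the first 2 of these, with adjusted p of 0.00348 and 0.00483, and 1141 genes in all. No member separated all 4 knockout from all 4 wild-type libraries, against 4.92% of all genes. Without the Balb/c clone 69 library edgeR called 4 members, among them Bcl2l1 (-0.91, adjusted p = 0.0184) and Bcl2l11 (-1.22, 0.0118), and 2142 genes in all.

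Whether the difference between knockout and wild-type lines varied between the 2 hosts was tested as the interaction of host and genotype. By edgeR 0 of 10 members passed, against 0% of all genes, whose smallest adjusted p was 0.0691. By that test no member is shown to differ between hosts in its knockout difference. At an unadjusted p under 0.05 there were 6, against 22.5% of all genes, and DESeq2 called 2, Bax and Bcl2l1, and 968 genes in all. Bax had the largest ratio of effect to error among members: its knockout difference was -0.6 in NSG and 0.73 in Balb/c, giving an interaction of 1.33 on the log2 scale (SE 0.25, interval 0.76 to 1.9, adjusted p = 0.0794 by edgeR and 0.00827 by DESeq2). The knockout libraries of Bax lay below the wild-type ones in NSG and above them in Balb/c, without overlap in either host. Without the Balb/c clone 69 library its interaction was 1.51 with an adjusted p of 0.0105, and 3 members and 2370 genes in all were called.

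For Bcl2l1 the knockout difference was -0.17 in NSG and -1.32 in Balb/c (interaction -1.14, SE 0.35, adjusted p = 0.131 by edgeR and 0.0394 by DESeq2). For Bcl2 it was 0.44 and -1.02 (interaction -1.46, SE 0.6, adjusted p = 0.205, and from -2.06 without Balb/c vCas9 to -0.61 without Balb/c parental), and for Bbc3 -0.53 and 0.48 (interaction 1.01, SE 0.35, adjusted p = 0.16). Bak1 and Bad had interactions of 0.72 and 0.69 with adjusted p of 0.177 and 0.213. Mcl1 was at 0.03 with an interval of -0.71 to 0.77, and Bcl2l11 at -0.32 with -1.44 to 0.8. Over the same libraries all 9 macrophage markers had positive interactions, with a median of 2.25, and all 8 neutrophil markers negative ones, with a median of -2.35; 0 of either passed by edgeR, and 9 and 6 were at an unadjusted p under 0.05.

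**Figure D3:**
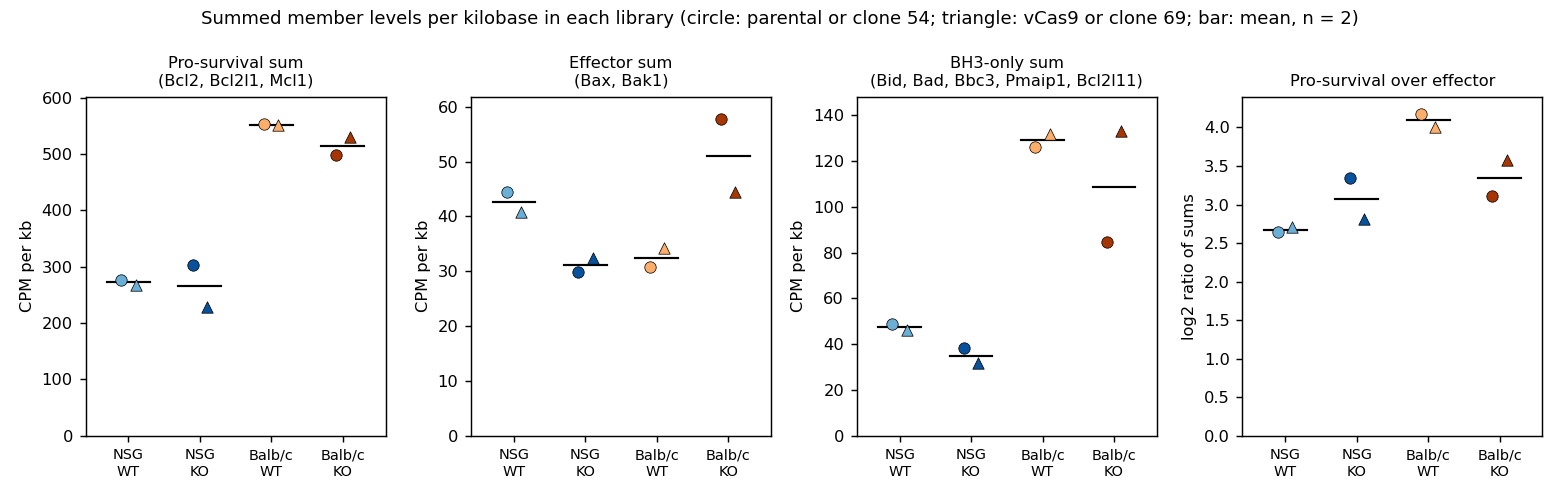
Summed level per length of the pro-survival, effector and BH3-only members in each library, in CPM per kb, and the log2 ratio of the pro-survival to the effector sum. Circles are the parental line or clone 54, triangles the vCas9 line or clone 69, and bars the mean of 2 libraries; the pro-survival sum is 498 to 553 in Balb/c libraries and 228 to 303 in NSG libraries, and the effector sum is highest in the Balb/c clone 54 library, at 57.7.

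Set against each other per length, the 3 classes did not move in parallel. The pro-survival sum was 277 and 268 CPM per kb in NSG wild-type, 303 and 228 in NSG knockout, 553 and 551 in Balb/c wild-type and 498 and 531 in Balb/c knockout tumors. Mcl1 made up 88.4% to 95.7% of it in every library, so the sum is mostly a restatement of Mcl1. The effector sum was 44.4 and 40.9, 29.9 and 32.5, 30.7 and 34.3, and 57.7 and 44.5 CPM per kb in the same order of groups. The BH3-only sum was 49 and 46.1, 38.2 and 31.9, 126 and 132, and 84.7 and 133 CPM per kb, carried by Bcl2l11 and Pmaip1.

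The log2 ratio of the pro-survival to the effector sum was 2.64 and 2.71 in NSG wild-type, 3.34 and 2.81 in NSG knockout, 4.17 and 4.01 in Balb/c wild-type and 3.11 and 3.58 in Balb/c knockout tumors. It was thus highest in Balb/c wild-type tumors. The log2 ratio per length of Bcl2l1 to Bax was -0.39 and -0.22, 0.43 and -0.25, 1.41 and 1.37, and -1.16 and -0.2 in that order. Only in Balb/c wild-type tumors did both libraries have more Bcl2l1 than Bax per length. The 2 effectors kept a steadier ratio, since log2 of Bak1 over Bax ran from -0.98 to -0.54 over the 8 libraries. These ratios are descriptions of mRNA, with 2 libraries a group.

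Genes with the most similar course over the 8 libraries were sought for the 6 members whose group means spanned more than 1 on the log2 scale, by the root mean square distance between centred log2 CPM values. For Mcl1 they were Nfil3 and Rnf114 at 0.093 and Iqgap2 at 0.096. Bcl2l11 was followed most closely by Gk (0.086), Suco (0.093) and Ell2 (0.102), and Bcl2l1 by Sipa1l1 (0.098), Malat1 (0.126) and Kctd4 (0.134). For Pmaip1, with the widest span of 2.97, the nearest were Mctp1 (0.133), Fndc5 (0.18) and Tnfsf14 (0.191). Bbc3 had Zfp511 (0.109), Got1 (0.116) and Atp6v1a (0.131), and Bcl2 had Pou6f1 (0.18), A930005H10Rik (0.223) and Gm19582 (0.287), the most distant set. The distances are a description over 8 libraries that are not independent of one another, since each host and each line recurs among them.

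**Figure D4:**
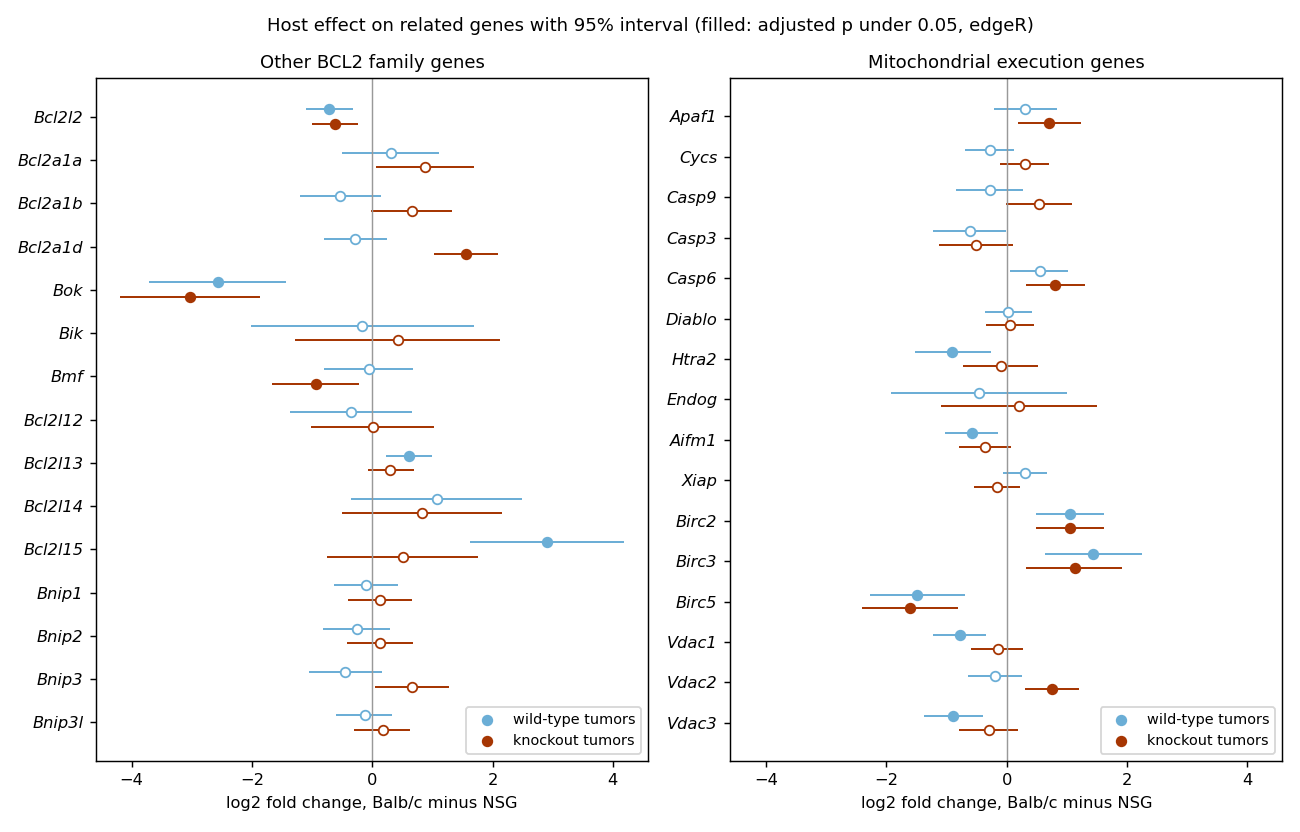
Host log2 fold changes (Balb/c minus NSG) with 95% confidence intervals for the tested other BCL2 family genes and the mitochondrial execution genes, 1 of which is not drawn, in wild-type and in knockout tumors. Filled points passed an adjusted p of 0.05 in edgeR. Bok is the lowest of the other family genes in both genotypes, at -2.57 and -3.03.

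Of 18 further BCL2 family genes, 15 were tested. Counts of this and the next 3 lists stand against 15.3% of all genes called higher and 16.2% lower in wild-type tumors, and 15.7% and 15.4% in knockout tumors. In wild-type tumors 2 rose in Balb/c hosts and 2 fell (median log2 fold change -0.17), and in knockout tumors 1 rose and 3 fell (median 0.3). Bok, which encodes a BAX-like effector, was at 32.4 and 26.3, 14.4 and 36.6, 4.76 and 5.13, and 4.18 and 1.97 CPM in the order of groups used above, and fell in both genotypes (log2 -2.57, SE 0.48, adjusted p = 0.00889, and -3.03, SE 0.5, adjusted p = 0.00377, by edgeR). Bcl2l2, which encodes the pro-survival protein BCL-W, also fell in both, by 0.72 and by 0.62, so that it went against the 3 pro-survival members in the wild-type tumors. Bmf, a BH3-only gene, fell in knockout tumors (-0.94, adjusted p = 0.0484). Bcl2l15 rose in wild-type tumors from 0.416 and 0.497 to 3.74 and 3.19 CPM and Bcl2l13 by 0.61 on the log2 scale. Bcl2a1d, an A1 gene of the pro-survival class, rose in knockout tumors by 1.56, but near-identical Bcl2a1 copies share reads and this value is uncertain.

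Among 17 genes that act at or after mitochondrial permeabilisation, 3 rose and 5 fell in wild-type tumors in Balb/c hosts, against 15.3% and 16.2% of all genes, and 6 rose and 1 fell in knockout tumors, against 15.7% and 15.4%. Birc3, an inhibitor of apoptosis protein gene, rose in both (from 180 and 166 to 477 and 460 CPM in wild-type and from 198 and 109 to 243 and 428 CPM in knockout tumors, adjusted p = 0.0186 and 0.0382 by edgeR), as did its neighbour Birc2 (1.06 and 1.05). Birc5, which encodes survivin and is expressed in dividing cells, fell in both (-1.49 and -1.61), beside the lower proliferation markers. Apaf1, which encodes the scaffold of the apoptosome, rose in the knockout tumors (0.71, adjusted p = 0.0439 by edgeR). Casp6 (0.81) and Vdac2 (0.75) rose there too, each with an adjusted p of 0.0198 by edgeR. Neither was called in the wild-type tumors (0.55 and -0.19). The other genes that fell, all in wild-type tumors by edgeR, were Htra2 (-0.9), Aifm1 (-0.58, not called by DESeq2), Vdac1 (-0.78) and Vdac3 (-0.89).

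Of 18 genes that act upstream of the members, 17 were tested, and 5 rose and 2 fell in wild-type while 6 rose and 1 fell in knockout tumors. Atf3, a stress-response factor gene, rose in both genotypes, at 292 and 265, 479 and 240, 515 and 681, and 1154 and 1411 CPM over the groups (log2 1.1, adjusted p = 0.0404, and 1.84, adjusted p = 0.00629, by edgeR). Jun and Fbxw7, whose product marks MCL1 for degradation, rose in both as well (Jun 0.76 and 1.22, Fbxw7 1.25 and 0.75). Mdm2, a p53 target, rose in the knockout tumors (1.21, adjusted p = 0.00808), and in the wild-type tumors its value of 0.66 missed the threshold in edgeR (adjusted p = 0.0639) and passed in DESeq2. Cdkn1a, another p53 target, was called in neither (0.59 and 0.55, adjusted p = 0.255 and 0.302). The integrated stress response genes Atf4 (1.28) and Ddit3 (1.35) rose in the knockout tumors and were called in the wild-type tumors by neither edgeR nor DESeq2 (0.06 and 0.65). E2f1 (-1.35, adjusted p = 0.0138) and Ywhaq (-0.69, adjusted p = 0.0347), which encodes a 14-3-3 protein, fell in wild-type tumors by edgeR, and Myc (-0.9, adjusted p = 0.0265) fell in knockout tumors. Trp53 itself had log2 fold changes of -0.33 and -0.05 and was not called. Foxo3 (0.68) and Bcl6 (0.83) rose in wild-type tumors and were not called in knockout tumors (0.37 and 0.56).

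Of 8 genes on the route from death receptors to BID, 4 rose in Balb/c hosts in wild-type tumors, and 3 rose and 1 fell in knockout tumors. Fasl, the CD95 ligand gene that T and NK cells express, was at 0 to 0.414 CPM in NSG and 19.4 to 39.3 CPM in Balb/c libraries and was called in both genotypes (adjusted p = 0.000424 and 0.000238 by edgeR). Tnfsf10, the TRAIL gene, rose by 2.21 and 1.71 on the log2 scale and Ripk1 by 0.98 and 1.09. Tnfrsf10b, the TRAIL receptor gene, fell in knockout tumors (-1.07, adjusted p = 0.0458) and in the average over genotypes (-0.84, adjusted p = 0.0213, by edgeR). Cflar, which encodes the caspase-8 inhibitor c-FLIP, rose in wild-type tumors (0.68, adjusted p = 0.0412). Casp8, named here for its product's cleavage of BID, had values of 0.29 and 0.33 and was not called in either genotype, but rose in the average over genotypes (0.31, SE 0.1, adjusted p = 0.0422 by edgeR). Bid was not called in these host comparisons with all 8 libraries, and without Balb/c clone 69 it was called in knockout tumors (0.82, adjusted p = 0.0283) and in the average.

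In the knockout comparisons and the interaction, 0 genes of these 4 lists passed by edgeR. Within Balb/c hosts 5 of 15 other family genes, 8 of 17 execution genes, 8 of 17 upstream genes and 4 of 8 death receptor genes were at an unadjusted p under 0.05, against the 30.9% of all genes given above, and DESeq2 called Bcl2a1d, Atf3, Myc, Huwe1 and Cflar. Within NSG hosts the numbers were 5, 1, 2 and 2, against 14.0% of all genes, and DESeq2 called Bcl2a1d, Bmf and Mdm2. For the average over hosts they were 4, 5, 3 and 5, against 23.9% of all genes, and DESeq2 called Bmf, Mdm2, Myc and Cflar. For the interaction they were 4, 4, 4 and 1, against 22.5% of all genes, and DESeq2 called Bcl2a1d, Atf4 and Huwe1.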

How the data were processed

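Total RNA from tumors was sequenced in 8 libraries. The authors deposited raw counts per Ensembl gene, 1 table per library. The submitters' processing notes name cutadapt 1.13, STAR, HTSeq 0.6.1p1, DESeq2 and the builds mm10 and hg19, and the strand setting and annotation are not given in the sources used here. Symbols came from a gene name table (24942 of 25006 identifiers), and positions and exonic lengths from GENCODE M21 (GRCm38). Members and gene lists were chosen with earlier results of these data known. Values are uncertain for members whose exons overlap another gene: Bad (20.5% of exonic length, Gpr137), Bak1 (18.2% and 7.35%, separate entries of Ggnbp1), Bid (17.7%, Bcl2l13), Bax (12.2%, Gm45808) and Bcl2 (6.09%, D630008O14Rik). The Bax overlap is on the same strand. The others are on opposite strands, so they depend on the unknown strand setting. Gm45808, D630008O14Rik and the Ggnbp1 entry with 7.35% are not among the counted genes.

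The tests used edgeR 4.0.16 under R 4.3.3: filterByExpr, TMM scaling, 4 group means over all 8 libraries (4 residual degrees of freedom), quasi-likelihood tests and Benjamini-Hochberg adjustment over 15310 genes, with a threshold of 0.05. Log2 CPM used a prior count of 2. On simulated data with 4-fold changes in 200 genes, 196 changed genes were tested among 14980 for the knockout in Balb/c hosts. The fit recovered 71.9% of them, with 4.08% of calls false. The largest knockout difference of a member in Balb/c hosts was 2.49-fold (Bcl2l1). Recovery of changes below 4-fold was not measured. Named genes were the 10 members, Fas, called genes of the lists, the first tested gene of a list (Trp53 among them), and the 3 nearest genes of members spanning over 1 in log2 CPM; Cdkn1a was added after its values were seen. Alternatives were other size factors, total-count scaling, no filter, DESeq2 1.42.0, fits of 4 libraries, the cell line as a replicate block, and each library left out. DESeq2 was given all 25006 deposited genes and not only the 15310 kept by the filter, so its totals are not shares of 15310. The line pairs libraries over hosts because titles give the same line in both. Line differences in NSG and Balb/c correlated over genes at 0.087 for parental minus vCas9 and -0.353 for clone 54 minus clone 69. Single genes withheld from the text are not reported here.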

Additional observations from a re-analysis of the deposited data

How the results depend on the processing

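Of 754 values of 55 member results under 15 alternatives, 652 kept their direction and side of the threshold. Most of the 55 results were not called in the main fit, so the 652 are mostly uncalled values that stayed uncalled. Only a called result can stop passing, and calls numbered 6, 4 and 5 in the host comparisons and 0 in the others. Another 35 passed it newly, 52 no longer passed it and 15 changed sign, and the cause was not tested. For the averages and the interaction these results covered only members at an unadjusted p under 0.05. Gains of other members there, such as Bcl2 in the host average by DESeq2 and without a filter, are not in these numbers. Counts of members called moved as follows. With line as a replicate block they were 1 (host, wild-type), 2 (host, knockout) and 3 (host, average), beside 2073, 2878 and 5167 of all genes, and 1 in the host comparison of knockout tumors with only its 4 libraries (2450 of all genes). Without a filter they were 2 (knockout in Balb/c), 2 (knockout, average) and 1 (interaction), beside 1774, 745 and 674 of all genes. DESeq2 gave 3, 2 and 2 for the same comparisons, beside 2161, 1141 and 968. Leaving out 1 library gave 1 to 7 for the wild-type host comparison, 2 to 6 for the knockout host comparison, 3 to 6 for their average, 0 to 0 for the knockout in NSG, 0 to 6 in Balb/c, 0 to 4 averaged and 0 to 3 for the interaction. Over all genes these fits called 858 to 6361, 2461 to 4640, 5003 to 7681, 0 to 1, 0 to 3886, 0 to 2142 and 0 to 2370 in the same order. The 6, 4 and 3 came without the Balb/c clone 69 library. No paired analysis was possible for the knockout comparisons because each line has 1 genotype. Crossing the clones in the replicate block was chosen after seeing the data because of their negative correlation. It gave 5, 5 and 1 members for the host comparison of knockout tumors, the average and the interaction, beside 5436, 7437 and 307 of all genes. This block pairs libraries of different clones and was picked from these same values, so its counts lend no support to the calls.

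Uncalled values changed sign under total-count scaling for Bbc3 (host, wild-type, -0.09), Bcl2l1 (host, knockout, -0.12) and Mcl1 (knockout in NSG, 0.04), and for Bcl2 (host, knockout, 0.01) under both replicate blocks. With 1 library left out the log2 fold changes in the knockout host comparison ran from -0.38 to 0.42 for Bcl2 and -0.26 to 0.36 for Bcl2l1, and Bbc3 ran from -0.13 to 0.31 in wild-type tumors. For the knockout in NSG they ran from -0.02 to 0.78 for Bcl2, -0.48 to 0.07 for Bcl2l1 and -0.26 to 0.16 for Mcl1, and in Balb/c from -0.02 to 0.84 for Bid and -0.28 to 0.37 for Pmaip1. Over all genes the alternatives other than left-out libraries called 2073 to 6838 (host, wild-type; 4825 as reported), 2450 to 5436 (host, knockout; 4757), 5167 to 7437 (host, average; 6893), 1 to 339 (knockout in NSG; 2), 0 to 2161 (in Balb/c; 27), 2 to 1141 (averaged; 0) and 0 to 968 (interaction; 0). Total-count scaling moved the median of all genes from -0.08 to -0.24, 0.02 to -0.17 and -0.02 to -0.2 in the host comparisons, and the share of calls that were higher from 48.6% to 36.5%, 50.5% to 37.3% and 48.9% to 35.3%. For the wild-type host comparison that share was 57.9% with DESeq2's size factors in edgeR, 57.2% without a filter, 56.7% in DESeq2, 57.7% with the block and 46.8% to 73.2% with 1 library left out, the highest without Balb/c vCas9. The smallest count of any member in a library was 52, far above the limit of 3 counts, and 2 libraries a group limit the precision of each value.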
